A study of Mus musculus with 3 samples.

Results

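The nuclear mRNA export machinery was examined as a list of 38 genes in platelets, the anucleate blood cells shed by megakaryocytes. The genes were chosen by symbol as export receptors, subunits and adaptors of the TREX and TREX-2 complexes, cap-binding proteins, the exportin Xpo1 and factors of the nuclear pore that act in mRNA export. Of these, 33 had rows in the count tables, which held 9822 genes in all. The 5 others, Nxf2, Nxf3, Nxf7, Alyref2 and Luzp4, were not among the genes of the tables and were not analysed here. Platelets had been purified from the blood of male mice of the BALB/c strain, 20 weeks old and Nxf1 wild type, and RNA was sequenced in 3 libraries of this 1 group, called replicates 1 to 3. The labels give each replicate its own batch, so replicate and batch cannot be told apart. The samples are called independent, but nothing says that each came from its own mouse, so the errors and p-values below reflect only how far these samples lie apart, and that may be technical. Counts assigned to genes totalled 26974129, 25189231 and 26111636 in replicates 1, 2 and 3, and levels are given as counts per 1000000 counts of that total (CPM). Every gene in the tables reached at least 0.238 CPM in its best library, so a gene without a row is not shown to be at 0.

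An mRNA leaves the nucleus as a protein-coated particle. The cap-binding complex and the TREX complex, which holds the THO subunits, an ATPase of the DDX39 family and RNA-binding adaptors, are loaded during transcription and splicing. The adaptors hand the RNA to the NXF1 and NXT1 dimer, which carries it through the pore, TREX-2 tethers the process to the nuclear basket, and DDX19 with GLE1 strips export proteins from the RNA on the cytoplasmic face. In the platelet lineage this takes place in the megakaryocyte, and mature platelets have no nucleus.

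The label was checked against its defining genes, and both Nxf1 and Nxt1 had rows. The platelet markers were abundant, with 8 of 8 genes detected and a summed level of 32721, 34629 and 34964 CPM in replicates 1, 2 and 3. Markers of other blood cells were also counted, and those of red cells exceeded the platelet sum in replicate 1. Red cell markers summed to 48700 CPM in replicate 1, against 5210 CPM in replicate 2 and 6794 CPM in replicate 3, B cell markers to 222, 216 and 354 CPM, and T cell markers to 13.4, 14.8 and 23.5 CPM. Monocyte and macrophage markers summed to 1303, 1527 and 1380 CPM, nearly all of it Lyz2, and neutrophil markers to 10.6, 16.2 and 19.6 CPM, while Cd3e, Cd14, Mpo, Elane and Ly6g had no row. The pan-leukocyte gene Ptprc was at 8.64, 7.11 and 11.5 CPM. Per kilobase of gene length the median export gene was at 1.46 CPM and Ptprc at 1.60. In bulk RNA fewer cells of a type and less RNA per cell cannot be told apart.

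Among the export genes, Cetn2 stood far above the others. Cetn2 gave 154 ± 4.10 CPM (SD, n = 3) and 48.8% of all counts of the 33 genes, which together took 0.0301%, 0.0305% and 0.0341% of counts in replicates 1, 2 and 3. Of the rest, 4 genes passed 10 CPM (Zc3h11a, Poldip3, Srsf3 and Chtop) and 28 lay under it. Gle1, at 9.18 CPM, stood at percentile 67.6 of all genes by CPM, so most genes of the tables also lay under 10 CPM. At a minimum of 1 CPM in every library, 30 of 33 members counted as detected, beside 77.7% of all 9822 genes. At 5 CPM it was 10 of 33, beside 40.7% of all genes. Levels of different genes were compared as CPM per kilobase of the deposited gene length. On that scale the median member was at 1.46 CPM per kilobase, beside 1.49 for the median of all genes, and 16 of 33 members lay at or above the median gene. The list as a whole thus stood close to the median gene of these tables.

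**Figure D1:**
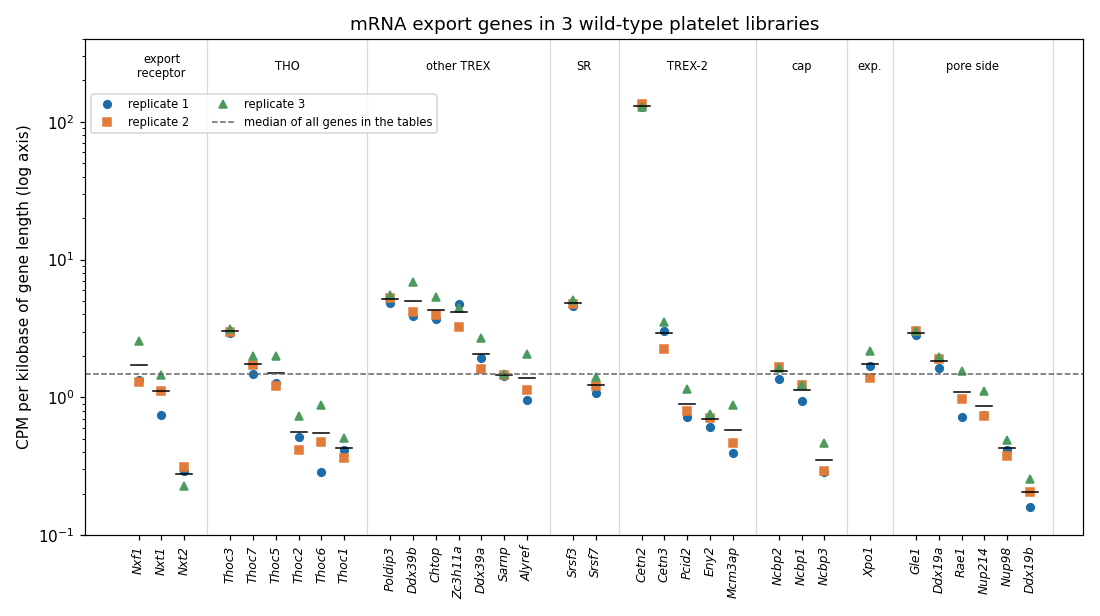
Level of each of the 33 export genes in CPM per kilobase of gene length (log axis) in replicates 1, 2 and 3 (points), with their mean (bar), grouped by complex; the dashed line is the median of all 9822 genes, 1.49. Cetn2 stands alone at 130 CPM per kilobase, Poldip3, Ddx39b, Srsf3, Chtop and Zc3h11a follow at about 4 to 5, and most others lie between 0.2 and 3.

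The order of the members was only partly fixed by these libraries. When the 33 genes were ranked by mean CPM per kilobase, 5 of the 32 neighbouring pairs kept their order in all 3 libraries. These were Cetn2 above Poldip3, Zc3h11a above Thoc3, Cetn3 above Ddx39a, Nup214 above Eny2 and Nup98 above Ncbp3. All other neighbours changed places in at least 1 library, so their order is not settled by these data. By complex, the median member was at 4.14 CPM per kilobase for the TREX genes outside THO, 3.03 for the SR protein adaptors, 1.75 for Xpo1 alone, 1.13 for the cap-binding genes, 1.11 for the export receptors, 1.02 for THO, 0.976 for the pore side and 0.887 for TREX-2. The order of cap-binding genes, export receptors, THO and the pore side changed between libraries. Cap-binding genes lay above export receptors in replicate 1 (0.941 against 0.741) and below them in replicate 3 (1.22 against 1.46).

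Of the export receptors, Nxf1 was the highest, Nxt1 was lower and Nxt2 was scarce. Nxf1 (chromosome 19, 8757103 to 8770910, GRCm38), the principal carrier of bulk mRNA, was at 3.04, 2.94 and 5.86 CPM in replicates 1, 2 and 3. Its exact Poisson 95% intervals were 2.42 to 3.77, 2.31 to 3.69 and 4.97 to 6.86 CPM, so replicate 3 lay above the others by more than counting error, the only error these intervals cover. Nxt1 (chromosome 2, 148672615 to 148676026), which binds NXF1 and stabilises its pore-binding fold, was at 0.816, 1.23 and 1.61 CPM from 22, 31 and 42 counts, with intervals of 0.511 to 1.23, 0.836 to 1.75 and 1.16 to 2.17 CPM that overlapped, and it missed the detection minimum through replicate 1. Its paralog Nxt2 (chromosome X, 142226770 to 142239700) had 20, 20 and 15 counts, or 0.741, 0.794 and 0.574 CPM, and failed the detection minimum in every library. Per base of gene length, Nxf1 gave 1.52 times the reads of Nxt1, a log2 ratio of 0.60 ± 0.36 (SD, n = 3) that was positive in all 3 libraries, and by reads alone it gave 3.15 times. Nxt2 lay below Nxt1 at a log2 ratio of -1.95 ± 0.67 per base, also the same way in every library, and of -0.74 by reads. The tissue-restricted carriers Nxf2, Nxf3 and Nxf7 had no row. With 3 libraries an exact two-sided sign-flip test cannot go below p = 0.25, so ratios are given with their SD and no p-value.

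The subunits of THO, the core of TREX, were uneven in level. Thoc3, a repeat protein of the core, led with 6.86, 6.95 and 7.24 CPM and 3.02 ± 0.0854 CPM per kilobase (SD, n = 3), with little spread between libraries. Thoc7 was at 1.71, 1.98 and 2.30 CPM and 1.74 ± 0.258 CPM per kilobase. Thoc5, which contacts NXF1, was at 2.85, 2.70 and 4.44 CPM and 1.49 ± 0.432 CPM per kilobase. These 3 lay above the remaining subunits in each library on the per-length scale. The scaffold Thoc2 was at 3.93, 3.18 and 5.59 CPM but, being long, at 0.555 ± 0.162 CPM per kilobase. Thoc1 gave 1.59, 1.39 and 1.95 CPM, or 0.427 ± 0.0740 CPM per kilobase. Thoc6 was the 1 THO gene not detected, at 0.408, 0.675 and 1.26 CPM from 11, 17 and 33 counts, and its coefficient of variation, 56.0%, was the highest of the members. The Poisson intervals of its lowest and highest library, 0.204 to 0.730 and 0.870 to 1.77 CPM, did not overlap.

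The ATPases and adaptors of TREX were spread over a wide range, and Poldip3, Ddx39b, Chtop and Zc3h11a, with the SR protein gene Srsf3, followed Cetn2 in the ranking per kilobase. Poldip3, an adaptor that is also linked to translation of newly spliced mRNA, was at 15.7, 17.2 and 17.8 CPM and 5.20 ± 0.334 CPM per kilobase (SD, n = 3). Chtop, which binds NXF1 and the ATPase, was at 12.1, 12.7 and 17.4 CPM and 4.33 ± 0.890 CPM per kilobase. Zc3h11a, a zinc finger protein of the complex, was at 20.9, 14.3 and 19.4 CPM and 4.14 ± 0.786 CPM per kilobase. Replicate 1 was its highest library and replicate 2 its lowest. Alyref, the classical adaptor that passes RNA to NXF1, was much lower at 1.08, 1.27 and 2.34 CPM and 1.38 ± 0.600 CPM per kilobase. Per base it gave 0.801 times the reads of Nxf1 (log2 ratio -0.32 ± 0.14, negative in all 3 libraries), and by reads alone 0.397 times. The deposited length of Alyref is 1132 bases, while the nearest GENCODE transcript has 3527, so its per-length values are uncertain. Sarnp was at 1.52, 1.55 and 1.57 CPM and 1.46 ± 0.0237 CPM per kilobase, with a coefficient of variation of 1.63% on plain CPM. Sarnp had only 41, 39 and 41 counts, so this small spread does not measure how exactly its level is known. Its highest library was 1.14 times its lowest on the TMM scale, and the smallest such value of the list was 1.08 for Srsf3. The SR proteins Srsf3 and Srsf7 bind exonic RNA in splicing and recruit NXF1. Srsf3 was at 14.0, 14.5 and 15.5 CPM and Srsf7 at 2.97, 3.33 and 3.87 CPM. Per base, Srsf3 gave 3.91 times the reads of Srsf7 (log2 ratio 1.97 ± 0.12).

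Of the 2 ATPases that load the adaptors, Ddx39b was the higher in every library. Ddx39b (chromosome 17) was at 6.86, 7.27 and 12.1 CPM and 4.97 ± 1.65 CPM per kilobase, and Ddx39a (chromosome 8) at 3.19, 2.66 and 4.48 CPM and 2.08 ± 0.565 CPM per kilobase (SD, n = 3). Per base, Ddx39a gave 0.424 times the reads of Ddx39b, a log2 ratio of -1.24 ± 0.19. Both were highest in replicate 3. Their coding sequences were 81.0% identical over 1281 aligned bases with a longest identical run of 26 bases, so these paralogs can be told apart by most reads. The 90-base window where they differ most has 31 differing positions, shown in capitals 5′ to 3′ (GENCODE M21 transcripts, GRCm38, plus strand, chr8:83721018-83721107 for Ddx39a and chr17:35246998-35247087 for Ddx39b).
Ddx39a: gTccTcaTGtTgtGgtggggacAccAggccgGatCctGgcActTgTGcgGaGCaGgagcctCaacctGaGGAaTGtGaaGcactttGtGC
Ddx39b: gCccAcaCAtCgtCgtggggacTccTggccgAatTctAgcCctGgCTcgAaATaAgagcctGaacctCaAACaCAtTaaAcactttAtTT

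The TREX-2 genes covered the widest range of any complex, with Cetn2 at 130 CPM per kilobase, Cetn3 at 2.93 and Mcm3ap, Pcid2 and Eny2 below the median gene. Cetn2 (chromosome X, 72913565 to 72918344), a centrin that also sits in centrioles and in the DNA damage recognition complex, was at 153, 159 and 151 CPM from 4119, 3998 and 3940 counts. It stood at percentile 95.9 of all genes per kilobase, and its coefficient of variation was 2.66%. The scaffold Mcm3ap, which encodes GANP, was at 2.52, 2.98 and 5.63 CPM, Pcid2 at 1.74, 1.91 and 2.76 CPM, and Eny2, shared with the SAGA chromatin complex, at 1.48, 1.71 and 1.84 CPM. On the per-length scale these 3 lay between 0.581 and 0.887 CPM per kilobase. Cetn3, the other centrin, was at 3.08, 2.26 and 3.56 CPM, and Cetn2 gave 44.8 times its reads per base (log2 ratio 5.49 ± 0.37; SD, n = 3). Pcid2 lay above Mcm3ap per base (log2 ratio 0.68 ± 0.26) but below it by reads (-0.73). No 50-base window of the Cetn2 transcript occurred in a transcript of another gene.

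Among the cap-binding genes Ncbp2 stood highest and Ncbp3 lowest per base. Ncbp1, the large subunit, was at 2.93, 3.85 and 3.79 CPM, and Ncbp2, which holds the cap, at 2.78, 3.37 and 3.33 CPM. Both were lowest in replicate 1. Per base, Ncbp2 gave 1.38 times the reads of Ncbp1 (log2 ratio 0.46 ± 0.07; SD, n = 3), whereas by reads it gave 0.901 times (-0.15). Ncbp3, an alternative partner of the large subunit, was at 1.82, 1.83 and 2.95 CPM and 0.350 ± 0.104 CPM per kilobase. It lay below Ncbp2 at a log2 ratio of -2.18 ± 0.35 per base and of -0.55 by reads. The deposited length of Ncbp3 is 6284 bases, while the nearest GENCODE transcript has 12106, so its per-length values are uncertain. Xpo1, the exportin for proteins with a leucine-rich signal and for a subset of mRNAs, was at 8.71, 7.11 and 11.2 CPM and 1.75 ± 0.399 CPM per kilobase. Its ratio to Nxf1 per base was 0.07 ± 0.29 on the log2 scale and changed sign between libraries, so on that scale no difference beyond the spread was seen. By reads alone it was 1.24 ± 0.29, or 2.36 times, so the comparison depends on the length correction. Of 13 pairs computed, this was the only one without the same sign in all 3 libraries.

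**Figure D2:**
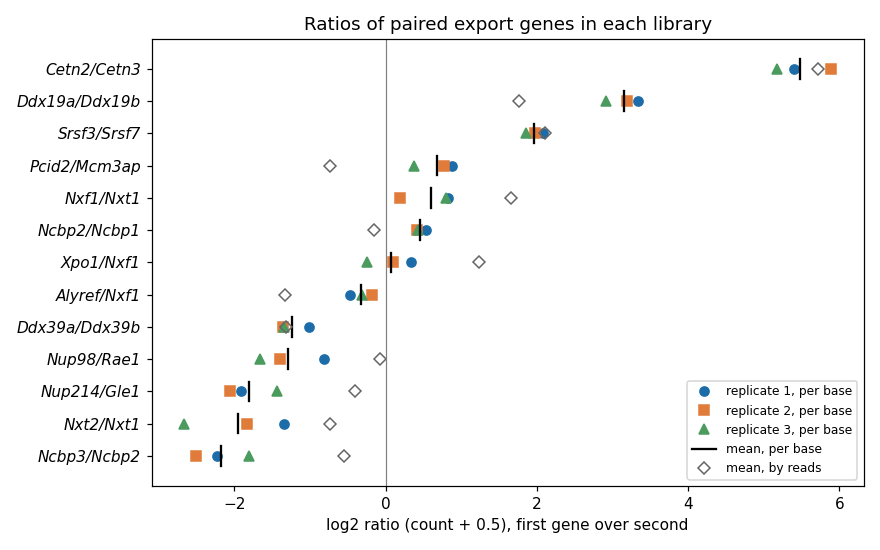
Log2 ratios of 13 pairs of export genes (first gene over second, prior count of 0.5) per base of gene length in each library (filled symbols), with their mean (bar) and the mean ratio by reads alone (open diamonds). Cetn2/Cetn3 is highest at a mean of 5.49 and Ncbp3/Ncbp2 lowest at -2.18; Pcid2/Mcm3ap and Ncbp2/Ncbp1 lie on opposite sides of 0 on the 2 scales.

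On the pore side, Gle1 led per kilobase, and Nup98 (0.425) and Ddx19b (0.207 CPM per kilobase) were lowest. Gle1, the activator of the DDX19 ATPase, was at 8.75, 9.37 and 9.42 CPM and 2.95 ± 0.120 CPM per kilobase (SD, n = 3). Nup214, which anchors DDX19 at the cytoplasmic filaments, was at 6.12, 5.95 and 9.15 CPM and, per base, below Gle1 at a log2 ratio of -1.80 ± 0.32, or -0.40 by reads. Rae1, an mRNA-binding partner of NUP98, was at 1.26, 1.71 and 2.72 CPM, and Nup98 at 1.67, 1.51 and 1.99 CPM. Per base, Nup98 gave 0.408 times the reads of Rae1 (log2 ratio -1.29 ± 0.43), while by reads alone the ratio, -0.074 ± 0.43, was smaller than its SD. All 6 genes of this group were detected, beside 77.7% of all 9822 genes.

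The ATPase itself was represented mainly by Ddx19a. It was at 4.19, 4.88 and 5.02 CPM, and Ddx19b at 1.08, 1.39 and 1.72 CPM. Ddx19a gave 8.87 times the reads of Ddx19b per base (log2 ratio 3.15 ± 0.21; SD, n = 3) and 3.38 times without the correction for length. These neighbours on chromosome 8 are near copies, so the split between them is uncertain. Their coding sequences were 93.6% identical over 1434 aligned bases, and 33.3% of the 50-base windows of the Ddx19a transcript and 12.7% of those of the Ddx19b transcript occurred in the other. Reads within the longest identical run, 275 coding bases, could come from either gene. It reads as follows 5′ to 3′ and lies on the minus strand, across introns, within chr8:110978601-110979205 for Ddx19a and chr8:111010854-111011454 for Ddx19b.
Ddx19a and Ddx19b: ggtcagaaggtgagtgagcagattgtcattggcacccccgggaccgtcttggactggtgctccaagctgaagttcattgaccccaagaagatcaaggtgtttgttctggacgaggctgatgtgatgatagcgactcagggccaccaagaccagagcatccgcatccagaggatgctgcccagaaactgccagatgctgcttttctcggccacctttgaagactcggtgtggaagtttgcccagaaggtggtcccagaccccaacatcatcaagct
The 90-base window with the most differences holds 25 of them, in capitals (minus strand, within chr8:110980626-110981038 for Ddx19a and chr8:111012827-111015612 for Ddx19b).
Ddx19a: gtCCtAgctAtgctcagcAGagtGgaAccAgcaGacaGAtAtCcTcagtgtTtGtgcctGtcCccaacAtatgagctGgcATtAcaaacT
Ddx19b: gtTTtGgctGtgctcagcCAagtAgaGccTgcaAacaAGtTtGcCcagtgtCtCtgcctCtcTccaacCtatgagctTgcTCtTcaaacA

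Several other members share sequence with another annotated gene. For Sarnp 49.7% and for Srsf3 31.5% of 50-base windows occurred on the same strand of another gene's transcript, mostly Gm6563 and Gm12355, and at 100 bases the shares were 35.01% and 20.7%. For Zc3h11a the share was 95.9%, mostly with Gm38394, an overlapping gene model at the same locus. Nxt1 shared 5.2% and Rae1 6.4% of 50-base windows on the same strand with another gene, and 0% at 100 bases. Zbed6, which lies within the span of Zc3h11a, had its own row at 3.55 ± 0.281 CPM (SD, n = 3). Opposite-strand overlap was largest for Thoc1, with 51.9% of windows shared with Usp14, followed by Thoc7 with 30.1% and Cetn3 with 17.2%. Usp14 was at 2.60 ± 0.353 CPM. Smaller opposite-strand overlaps lay beside more abundant genes. Thoc6 shared 7.02% of windows with Hcfc1r1, which was at 13.8 ± 0.641 CPM. Ddx39a shared 3.05% with Adgre5, which was at 90.1 ± 8.23 CPM. Whether counting used the strand is not given in the sources used here. Without strand, reads from opposite-strand partners cannot be told apart, and reads in same-strand copies can be placed in either gene. The levels of Sarnp, Srsf3, Zc3h11a, Thoc1, Thoc6, Thoc7, Cetn3, Ddx39a, Nxt1 and Rae1 are therefore uncertain. Nxf1, Thoc3, Thoc5, Poldip3, Cetn2, Xpo1 and Nup98 shared no 50-base window.

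**Figure D3:**
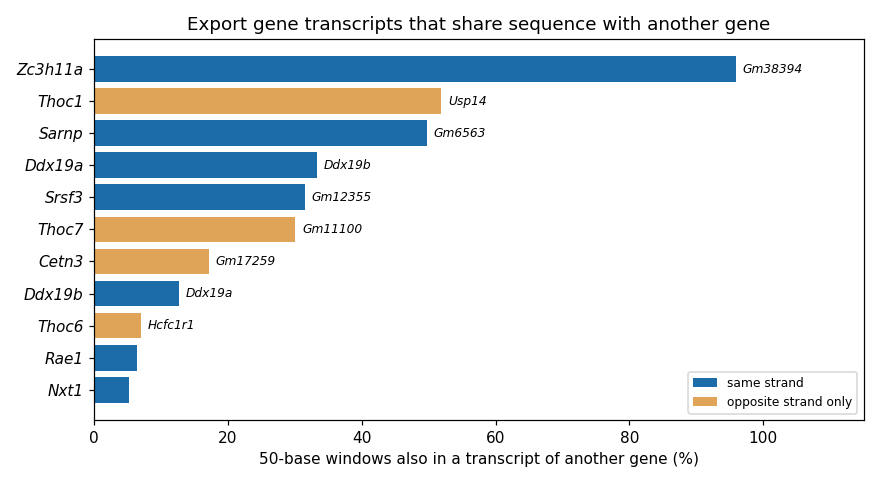
Percentage of 50-base windows of each member's transcript that also occur in a transcript of another gene, for members at 5% or more. Bars show windows on the same strand (blue) or on the opposite strand only (tan). A name beside a bar is the gene that shares most, and the bars of Nxt1 and Rae1 carry no name. Zc3h11a is highest at 95.9%, and Thoc1 at 51.9% and Thoc7 at 30.1% overlap on the opposite strand only.

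Whether a member varied between libraries more than genes of its level was tested with edgeR's quasi-likelihood dispersion, with Benjamini-Hochberg adjustment over the 8289 genes that averaged at least 1 CPM. Of these genes 22 were called at an adjusted p under 0.05, or 0.265%, and 2 without replicate 1. Of the 31 members tested, 0 were called, the lowest adjusted p by edgeR being 0.990. At an unadjusted p under 0.05 it was 1 member, Mcm3ap, beside 4.72% of all genes, and DESeq2 marked 0 members as dispersion outliers, beside 0.591%. Nxf1 had an unadjusted edgeR p of 0.0708. The highest library exceeded the lowest by a median of 1.36 times over the 33 members and 1.27 times over all genes tested, on CPM scaled by TMM, a trimmed mean of ratios between libraries. The 33 members include Nxt2 and Thoc6, which averaged under 1 CPM and were not tested, so the 2 sets differ in filter. Among the 31 members tested, the largest ratio of highest to lowest library was 1.92, for Mcm3ap. Differences of that size were too small for this test to call on simulated data, so a miss here does not show that levels were equal.

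The direction of the spread was uneven among libraries. The 33 members again include Nxt2 and Thoc6, which averaged under 1 CPM, whereas all genes tested averaged at least 1 CPM. By CPM, 28 of 33 members were highest in replicate 3, but so were 69.1% of all genes tested. With TMM scaling it was 20 of 33 members, beside 42.1% of all genes, and 11 members were highest in replicate 2, beside 27.5%, and 2 in replicate 1, beside 30.4%. The 20 included Nxf1 (3.20, 3.08 and 5.31 TMM-scaled CPM), Mcm3ap, Ddx39b, Alyref, Rae1, Nup214 and Thoc6. Among the 11 highest in replicate 2 were Cetn2, Poldip3, Srsf3, Thoc3, Sarnp and Gle1. On the same scale all 6 B cell markers and all 5 T cell markers in the tables were highest in replicate 3, summing to 234, 226 and 320 and to 14.1, 15.5 and 21.3 TMM-scaled CPM, and Ptprc was at 9.10, 7.44 and 10.4. Monocyte and macrophage markers summed to 1373, 1600 and 1250 TMM-scaled CPM, lowest in replicate 3, but nearly all of this sum was Lyz2. Of the 5 genes of that list in the tables, 2 were highest in replicate 1, 1 in replicate 2 and 2 in replicate 3. Neutrophil markers summed to 11.2, 17.0 and 17.7 TMM-scaled CPM, with 1 gene highest in each replicate. Of the 8 platelet markers 7 were highest in replicate 2 and 0 in replicate 3. The part of leukocytes in the level of the members was not tested.

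**Figure D4:**
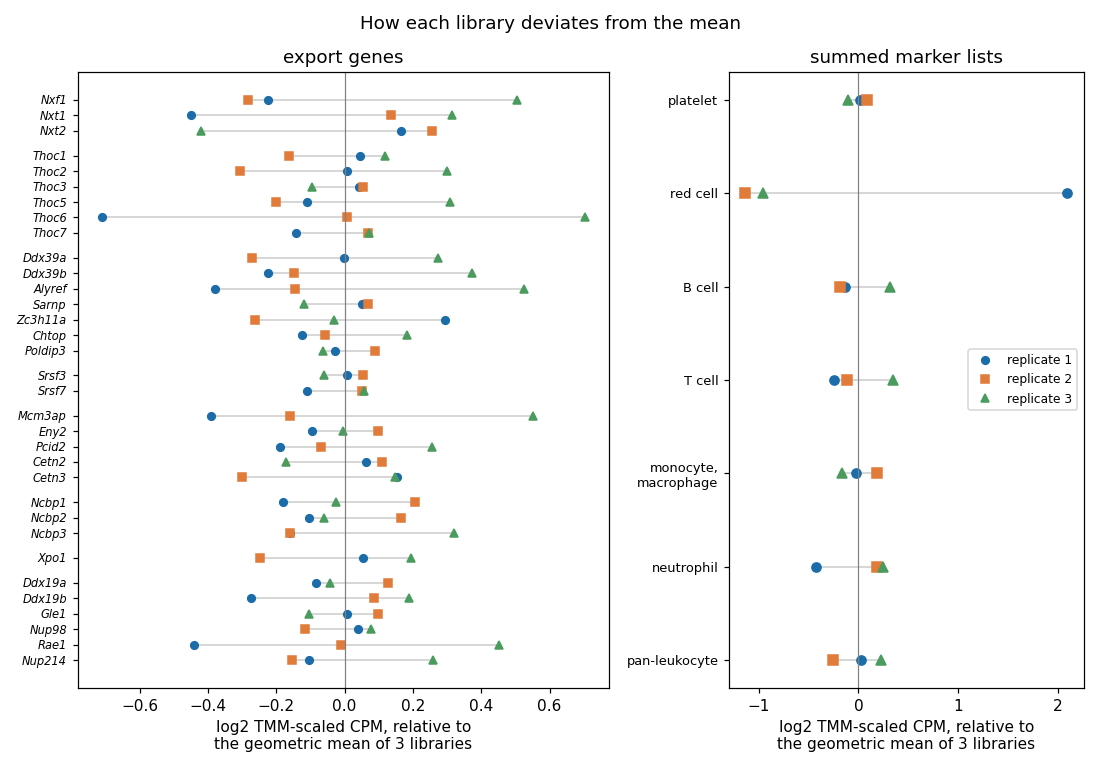
Deviation of each library from the geometric mean of the 3 libraries, as log2 of TMM-scaled CPM, for the 33 export genes by complex (left) and for summed marker lists of blood cells (right). Replicate 3 (triangles) is highest for 20 of 33 export genes and for the B cell and T cell sums; replicate 1 (circles) is far highest for red cell markers.

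Lists of other nuclear transport genes had medians on both sides of that of the members. The detection counts given for them stand beside a share of 77.7% detected over all 9822 genes. Among further export adaptors and cofactors 11 of 12 genes were detected, led by the poly(A)-binding protein gene Zc3h14 at 51.3 ± 0.524 CPM and by Sem1, another TREX-2 subunit that also serves the proteasome, at 29.1 ± 0.771 CPM (SD, n = 3). Per kilobase Sem1 was at 59.2, well above Mcm3ap, Pcid2 and Eny2 and below Cetn2. For the exon junction complex, which marks spliced mRNA, 7 of the 8 genes in the tables were detected, and Acin1 (17.2 ± 2.23 CPM) and Sap18 (5.76 ± 1.33 CPM) led. For other nuclear pore genes it was 19 of 24, led by the channel protein gene Nup62 (23.5 ± 1.79 CPM) and the basket gene Tpr (15.6 ± 5.65 CPM). For the Ran cycle, which powers XPO1 but not NXF1, it was 4 of 6, led by Rangap1 (7.52 ± 1.59 CPM) and Ran (6.61 ± 1.24 CPM). Among other exportins and importins 16 of 17 were detected, and Ipo11, an importin, stood at 519, 533 and 546 CPM, while Kpnb1 followed at 16.8 ± 3.20 CPM. Per kilobase Cetn2 was at 130 ± 3.46 CPM and Ipo11 at 124 ± 3.15 CPM. The medians of these lists were 1.52, 1.77, 0.767, 1.95 and 0.874 CPM per kilobase in the order given, beside 1.46 for the members. Magohb, Nup37, Nup42 and Rangrf had no row.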

How the data were processed

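The labels' protocols name a Norgen purification kit for platelet RNA and Illumina TruSeq RNA version 2 reagents for the libraries. The values deposited by the authors are raw counts per gene, beside a length for each gene. The submitters' processing notes name CASAVA 1.8.2, Subread, featureCounts, edgeR 3.11.5 and build mm10. The sources used here do not give the annotation, the strand setting, how reads with several matches were treated or which filter was put on genes.

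The members and lists were chosen with earlier results of these data known. All 38 symbols matched an Entrez number in the RefSeq gene table for GRCm38.p6, the assembly of mm10, which also gave coordinates. CPM used the plain total, and detection meant 1 CPM or more in every library. Ratios used a prior count of 0.5. Every member was named, and from each list of other transport genes the 2 that led by mean CPM. The spread between libraries was tested with edgeR 4.0.16 (limma 3.58.1, R 4.3.3), with an intercept, TMM factors of 0.949, 0.955 and 1.10, and 2 residual degrees of freedom, by the upper tail of F. The procedure was first tested on simulated data. Shared windows were counted for the protein-coding GENCODE M21 basic transcript nearest in length to the deposited gene length, on both strands, at 50 and 100 bases. Paralog coding sequences were aligned with Biopython 1.88. This annotation may differ from the one used for counting. Alternatives were DESeq2 1.42.0, other scalings, filters and length scales, and each replicate left out.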

Additional observations from a re-analysis of the deposited data

How the results depend on the processing

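At a minimum of 5 CPM 10 members were detected, in place of 30. Totals without mt-Rnr1, mt-Rnr2 and globin genes raised the median CPM per kilobase to 1.96 for all members, 1.48 for export receptors, 1.37 for THO, 5.57 for other TREX genes, 4.07 for SR adaptors, 1.19 for TREX-2, 1.52 for cap-binding genes, 2.35 for Xpo1 and 1.30 for the pore side. As CPM without the length the medians were 3.39 for all members, 2.66 for THO, 8.73 for other TREX genes, 9.03 for SR adaptors, 2.97 for TREX-2, 3.16 for cap-binding genes, 9.0 for Xpo1 and 3.30 for the pore side. By reads alone the log2 ratio reversed for Pcid2/Mcm3ap (-0.73) and Ncbp2/Ncbp1 (-0.15). It moved for Nxf1/Nxt1 (1.66), Nxt2/Nxt1 (-0.74), Alyref/Nxf1 (-1.33), Srsf3/Srsf7 (2.11), Ncbp3/Ncbp2 (-0.55), Xpo1/Nxf1 (1.24), Ddx19a/Ddx19b (1.76), Nup98/Rae1 (-0.074) and Nup214/Gle1 (-0.40); these changes follow from the gene lengths. With each replicate left out, Xpo1/Nxf1 ranged from -0.07 to 0.22. The count of all genes with a called spread, 22, was 11 with plain totals, 0 with edgeR's robust prior (422 at an unadjusted p under 0.05), 49 as DESeq2 dispersion outliers, and 2 to 29 with each replicate left out, the lowest without replicate 1; the cause was not tested. No member was called by edgeR or DESeq2 under any of these settings. Depth limits the scarcest members, which rest on 11 to 42 counts a library for Nxt1, Nxt2 and Thoc6. No paired analysis was possible because the 3 libraries form 1 group.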
